A study of Mus musculus with 16 samples.

Results

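The 44 genes described here are the collagen chain genes of the mouse, that is, every protein-coding gene of the count table whose symbol has the form Col, a type number, the letter a and a chain number. They make up 44 of the 21936 protein-coding genes and of 55487 gene identifiers in all. By the usual grouping of the collagens, 11 encode chains of fibrillar collagens (types I, II, III, V, XI, XXIV and XXVII), 8 encode chains of basement-membrane collagens (types IV, XV and XVIII) and 25 belong to the other types. The genes were measured by RNA sequencing in 16 mammary organoid samples of 4 genotypes, to compare organoids with HER2 and PIK3CA mutations, alone and together, with wild-type organoids. Organoids are cell clusters grown in culture. Here the medium held epidermal growth factor and conditioned medium with Rspo1 and Noggin for all samples.

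WT organoids (n = 3) came from normal breast. Organoids labelled as PIK3CA mutated (n = 4), HER2 mutated (n = 4) and mutated in both genes (n = 5, the double mutant) came from tumor breast. The title of the series names the alleles as HER2 V777L and PIK3CA H1047R. How the alleles were introduced, in which cells, and the age of the mice are not given in the sources used here. In each comparison with WT, genotype and tissue of origin cannot be told apart. Nothing in the labels says whether the replicates came from separate mice or cultures, so the p-values measure only the spread between these samples, which may be technical. Libraries are written by genotype and replicate number (WT 1, HER2 mutant 3), and values are listed in that order.

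Collagens are proteins of the extracellular matrix whose chains wind into a triple helix. Fibrillar collagens form the ropes that carry tension in stroma and cartilage. Type IV collagen forms the sheet-like network of basement membranes, and the collagens XV and XVIII sit at the border of basement membrane and stroma. Collagen XVII spans the membrane of basal epithelial cells at hemidesmosomes, collagen VII forms the anchoring fibrils beneath them, and the fibril-associated collagens, called FACITs, lie on the surface of fibrils. In the mammary gland fibroblasts are the usual source of collagens I and III, while epithelial and myoepithelial cells add basement-membrane chains.

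Total counts per library ran from 45545182 to 64168308, and 24252 genes passed the filter on low counts. Levels are CPM, counts scaled to a common library size with edgeR's TMM factors. Differences were tested with edgeR's quasi-likelihood test and Benjamini-Hochberg adjustment over all 24252 genes, and a gene is said to be called where the adjusted p is under 0.05. Erbb2, which encodes HER2, stood at 145 to 4632 CPM over all libraries. It was at 2696 to 4632 CPM in the HER2 mutant and 1499 to 2751 in the double mutant, against 145 to 171 in WT. Pik3ca was at 91.6 to 111 CPM in the PIK3CA mutant and 109 to 122 in the double mutant, against 75.9 to 85.7 in WT. The summed level of 12 fibroblast markers was 179 to 515 CPM in WT, 91.4 to 156 in the PIK3CA mutant, 12 to 165 in the HER2 mutant and 12.4 to 78.4 in the double mutant. The summed level of 8 macrophage markers was 541 to 3329 CPM in WT and 14 to 37, 9.33 to 210.0 and 12.8 to 67.6 in the PIK3CA, HER2 and double mutants. Luminal markers were present throughout, with a summed level of 11 genes of 2212 to 4776 CPM. The 4 adipocyte markers summed to under 1 CPM in every library, and 4 Schwann cell markers to 380.4 to 1065 CPM. Double mutants 2 and 3 stood apart from double mutants 1, 4 and 5 on the second principal component of all genes, with scores of -35.6 and -10.9 against 33.6 to 47.8.

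Of the 44 genes, 35 had an entry in the RefSeq promoter table of build GRCm38.p6, with 38 windows in all because some genes have more than 1 start. Of these, 5 are shown for 2 reasons. Col3a1, Col5a3 and Col15a1 were lower in the double mutant than in WT. Col4a5 and Col4a6 are neighbours on the X chromosome that start back to back, of which only Col4a5 was called between genotypes. Each stretch was taken from the 250 bases before the start in that table and is cut to bases that no annotated exon covers. It lies directly before the annotated gene start except for Col15a1. There it ends at chr4:47208011, and the annotated gene starts further on, at chr4:47208161. Capitals mark 3 short motifs read on both strands: the CCAAT box (CCAAT or ATTGG), the GC box (GGGCGG or CCGCCC) and the TATA box (TATAAA or TTTATA). The sequences are given 5′ to 3′ on the strand of the gene. Positions are chr1:45311288-45311537 (plus strand) for Col3a1, chr9:20815068-20815317 (minus strand) for Col5a3, chr4:47207762-47208011 (plus strand) for Col15a1, chrX:141475169-141475384 (plus strand) for Col4a5 and chrX:141474077-141474326 (minus strand) for Col4a6.
Col3a1: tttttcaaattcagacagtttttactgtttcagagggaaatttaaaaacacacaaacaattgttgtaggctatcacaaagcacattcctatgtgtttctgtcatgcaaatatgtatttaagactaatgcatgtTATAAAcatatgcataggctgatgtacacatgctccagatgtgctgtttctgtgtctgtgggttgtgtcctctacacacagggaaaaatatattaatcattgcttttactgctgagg
Col5a3: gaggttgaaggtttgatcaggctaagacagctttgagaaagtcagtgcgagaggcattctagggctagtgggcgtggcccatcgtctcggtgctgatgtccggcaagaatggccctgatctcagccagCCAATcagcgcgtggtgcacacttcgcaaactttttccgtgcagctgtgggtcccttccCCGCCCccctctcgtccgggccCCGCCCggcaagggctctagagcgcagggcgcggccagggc
Col15a1: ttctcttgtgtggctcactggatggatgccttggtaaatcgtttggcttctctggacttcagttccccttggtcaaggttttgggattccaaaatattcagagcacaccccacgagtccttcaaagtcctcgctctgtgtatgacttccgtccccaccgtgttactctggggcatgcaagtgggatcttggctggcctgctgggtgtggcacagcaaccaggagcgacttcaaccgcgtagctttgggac
Col4a5: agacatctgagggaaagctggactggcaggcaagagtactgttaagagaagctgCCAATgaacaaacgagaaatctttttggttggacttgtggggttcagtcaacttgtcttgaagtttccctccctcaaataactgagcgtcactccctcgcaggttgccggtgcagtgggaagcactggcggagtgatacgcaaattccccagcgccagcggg
Col4a6: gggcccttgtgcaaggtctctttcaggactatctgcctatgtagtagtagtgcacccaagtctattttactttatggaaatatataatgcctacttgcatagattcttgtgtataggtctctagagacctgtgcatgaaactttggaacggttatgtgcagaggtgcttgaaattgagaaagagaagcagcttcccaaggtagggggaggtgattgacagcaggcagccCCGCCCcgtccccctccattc

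The stretch before Col3a1 held a TATA box, that before Col5a3 a CCAAT box and 2 GC boxes, and that before Col15a1 none of these motifs. A CCAAT box was present before Col4a5 and a GC box before Col4a6. Over all 32536 windows of 250 bases in the table, 33.8% held a CCAAT box, 33% a GC box and 12.3% a TATA box. Among the 38 collagen windows the motifs were in 13, 22 and 5. These matches are descriptions of the letters.

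Of the 44 collagen genes, 41 passed the filter and were tested. Col6a5, Col13a1 and Col22a1 did not, with at most 0.160, 0.400 and 0.192 CPM in any library. Of the 41, 22 were called in at least 1 of the 6 pairs of genotypes and 19 in none.

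**Figure D1:**
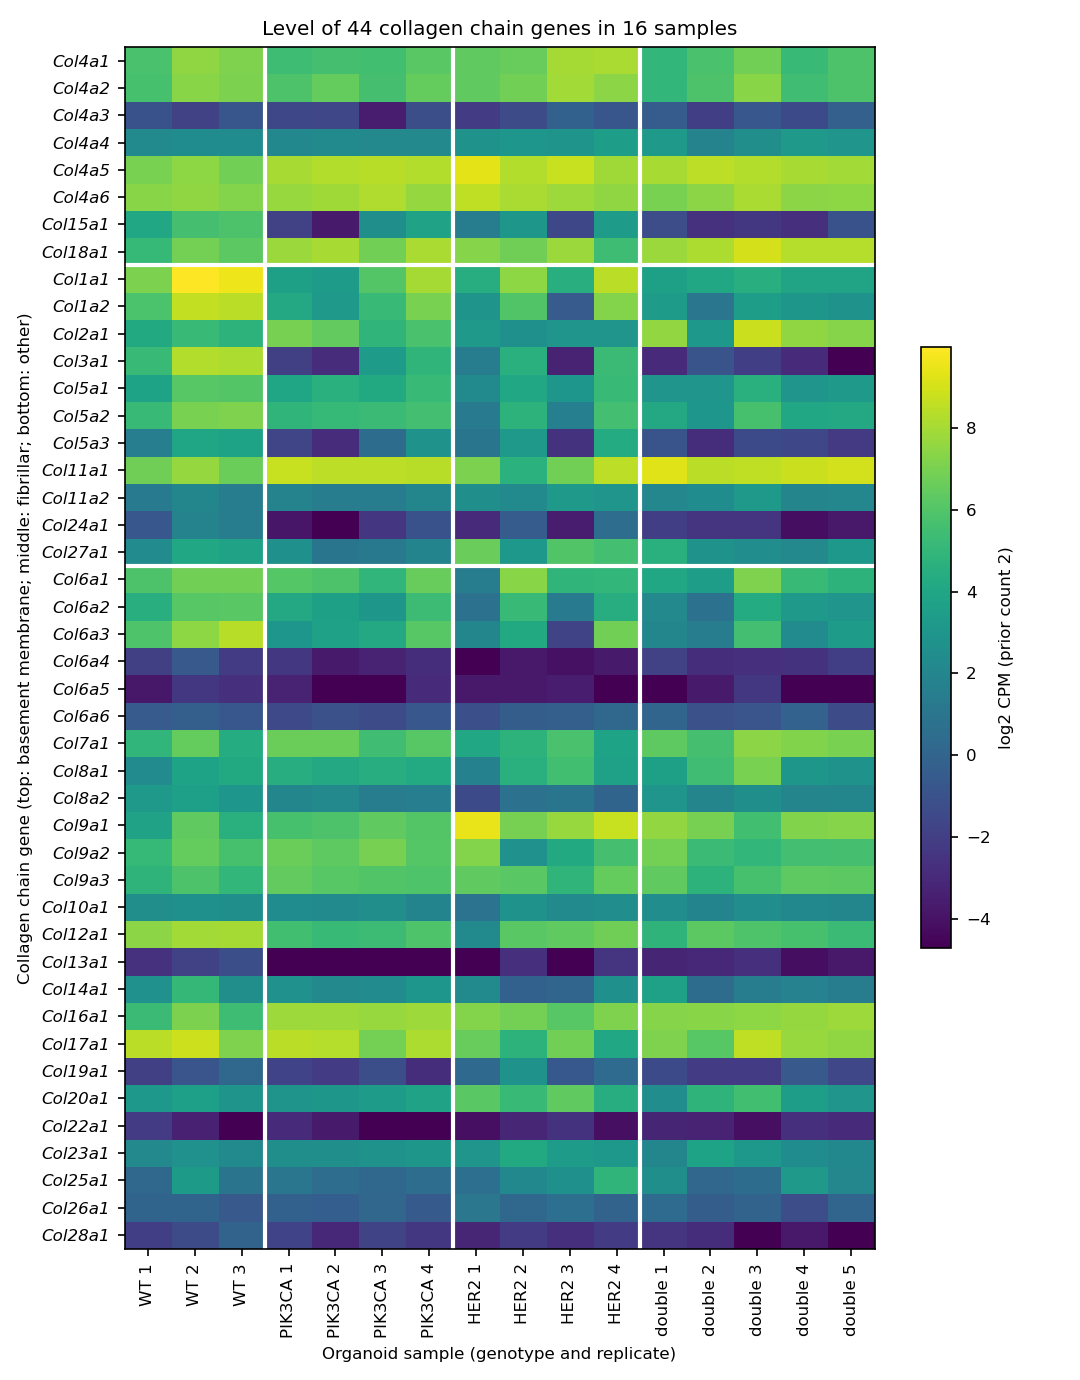
Level of each of the 44 collagen chain genes (rows) in each of the 16 samples (columns) as log2 CPM with a prior count of 2; brighter cells are higher, white lines part the 4 genotypes and the basement-membrane, fibrillar and other classes. Col1a1, Col1a2 and Col3a1 are bright in WT 2 and WT 3 and less bright in the 5 double mutant samples, where only Col3a1 is dark throughout. Col4a5 and Col11a1 are bright in all mutant samples but for Col11a1 in some HER2 mutant samples.

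Per kb of exon, the highest collagen gene in WT was Col1a1 with 97.3 ± 68.7 CPM per kb (SD, n = 3), followed by Col17a1 with 53.4 ± 27.7. In the PIK3CA mutant it was Col4a5 with 45.1 ± 4.74 CPM per kb (SD, n = 4), nearly level with Col17a1 at 44.7 ± 16.9. In the HER2 mutant Col9a1 led with 72.2 ± 51.3 CPM per kb (SD, n = 4) and Col4a5 followed with 59.9 ± 27.1. In the double mutant Col18a1 led with 47.4 ± 16.2 CPM per kb (SD, n = 5), ahead of Col4a5 at 43.3 ± 7.44 and Col11a1 at 35.9 ± 8.02. In each genotype the mean of the second gene lay within the SD of the first gene. Of the CPM per kb summed over all collagen genes, the fibrillar genes took 19.3% to 46.5% in WT, 13.2% to 22.8% in the PIK3CA mutant, 5.14% to 26.8% in the HER2 mutant and 12.5% to 22.5% in the double mutant.

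Against WT, 13 of the 41 tested collagen genes were called in the double mutant, 4 higher and 9 lower, where 11.8% of all genes were called, 5.03% higher and 6.72% lower. In the fit without double mutants 2 and 3 the count was 10, where 9.01% of all genes were called. With a GC and length offset it was 16, 7 higher and 9 lower, where 14.9% of all genes were called. It ranged from 5, without WT 3, to 16 when 1 library was left out, where 4.68% to 12.3% of all genes were called. By class, 7 of 11 fibrillar genes were called, 1 higher and 6 lower, with a median log2 fold change of -2.21. Of the basement-membrane genes 3 of 8 were called, 2 higher and 1 lower, and of the other types 3 of 22. The median over all genes was 0.01. The 2 groups did not overlap for 4 genes that were higher and 12 that were lower in the double mutant, against 9.68% and 13.4% of all genes.

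In the HER2 mutant against WT, 7 collagen genes were called, 4 higher and 3 lower, where 10.4% of all genes were called, 4.75% higher and 5.63% lower. With a GC and length offset the count was 11, 8 higher and 3 lower, where 12% of all genes were called. In the PIK3CA mutant against WT, 3 were called, 2 higher and 1 lower, where 4.52% of all genes were called, 1.49% higher and 3.03% lower. None of the 11 fibrillar genes was called by edgeR in that comparison, while 5 had an unadjusted p under 0.05 and DESeq2 called 1, where it called 6.15% of all genes. All comparisons with WT share the same 3 WT libraries.

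Among the mutants, 7 collagen genes were called in the double mutant against the HER2 mutant, 3 higher and 4 lower, where 2.5% of all genes were called, 1.03% higher and 1.47% lower. Between the HER2 and PIK3CA mutants 5 were called, 4 higher and 1 lower in the HER2 mutant, where 4.41% of all genes were called, 2.21% higher and 2.2% lower. Between the double and the PIK3CA mutant edgeR called 0 of the 41, where 0.672% of all genes were called, 0.309% higher and 0.363% lower. There 10 had an unadjusted p under 0.05 and DESeq2 called 2, both lower, where it called 2.66% of all genes. The interaction asks whether the log2 change of the double mutant departs from that of both single mutants added up. Each of these changes is taken against WT, so genotype and tissue of origin cannot be told apart in the interaction either. The interaction was called for 3 collagen genes, 2 above and 1 below 0, where 1.06% of all genes were called, 0.515% above and 0.544% below.

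**Figure D2:**
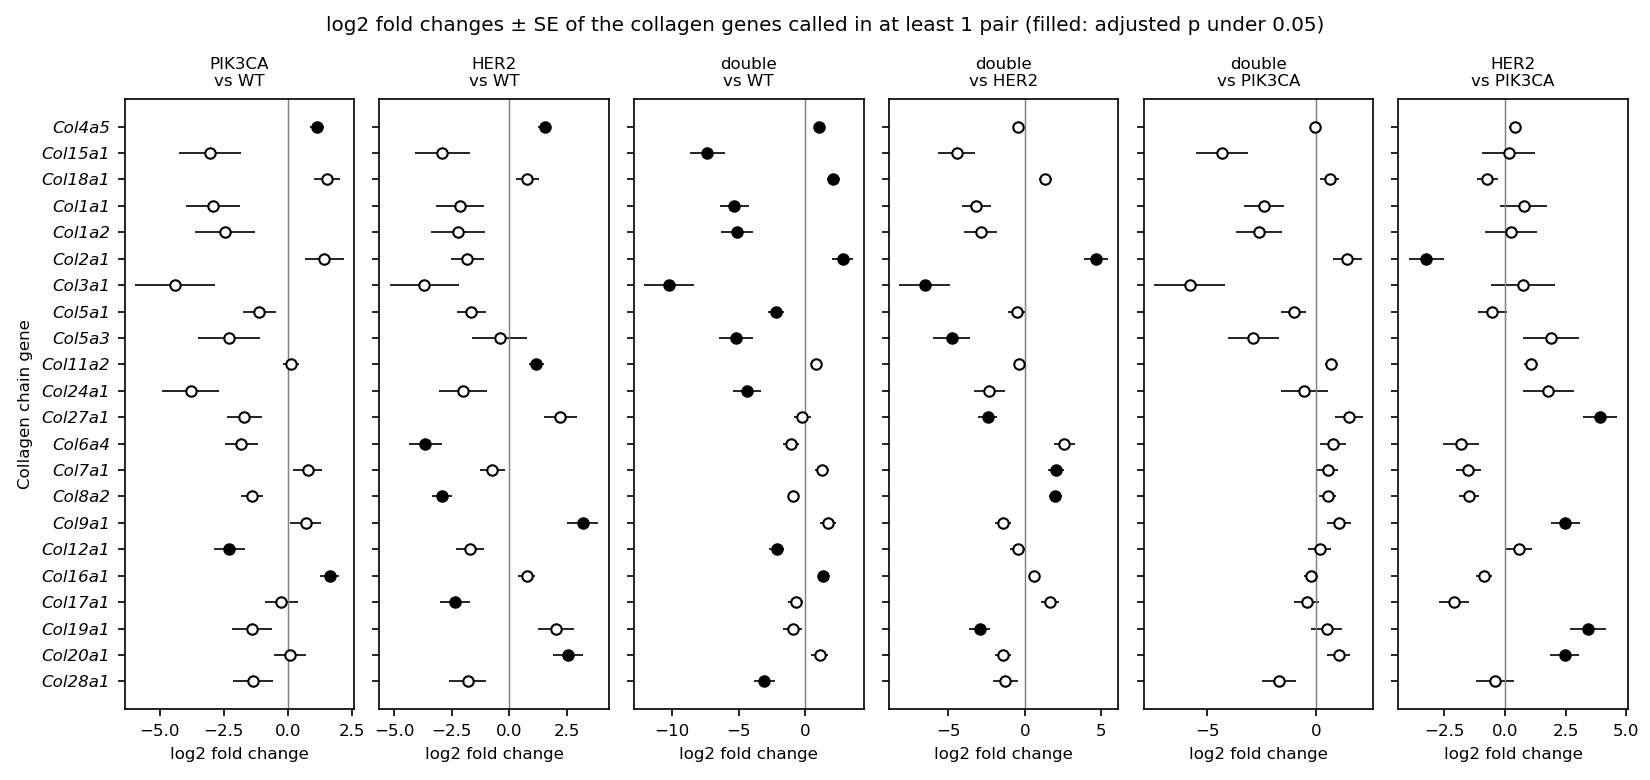
log2 fold change ± SE (horizontal axes, 1 panel per pair of genotypes, scales differ) of the 22 collagen genes called in at least 1 pair; filled points have an adjusted p under 0.05. The panel of the double mutant against WT has 13 filled points and that of the double against the PIK3CA mutant has none.

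The chains of the stromal fibrillar collagens I and III were lower in the double mutant than in WT, in all libraries. Col1a1 and Col1a2 encode the chains of collagen I, the main collagen of stroma. Col1a1 was at 133, 999 and 785 CPM in WT, 12.5, 9.98, 65 and 250.4 in the PIK3CA mutant, 21.4, 181, 22.6 and 352 in the HER2 mutant and 12.3, 16.6, 22.5, 14.2 and 14.5 in the double mutant. WT 1 was lower than WT 2 and WT 3, the single mutants spread from near the double mutant up to the level of WT 1 and above, and the 5 double mutant libraries lay below every WT library. Col1a1 fell in the double mutant against WT (log2 fold change -5.32 ± 1.07 SE, adjusted p = 0.00434). The same comparison gave -2.92 ± 1.07, adjusted p = 0.153, for the PIK3CA mutant and -2.15 ± 1.04, adjusted p = 0.209, for the HER2 mutant, neither past the threshold. For Col1a1 the call held in each of the 8 fits with 1 library left out.

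Col1a2 was at 56.8, 397 and 342 CPM in WT, 17.5, 9.01, 36.5 and 129 in the PIK3CA mutant, 7.26, 64.2, 0.668 and 154 in the HER2 mutant and 10.1, 2.03, 10.7, 8.39 and 6.88 in the double mutant. HER2 mutant 3 and double mutant 2 were the lowest libraries, and double mutant and WT did not overlap. Col1a2 fell in the double mutant (log2 fold change -5.12 ± 1.19 SE, adjusted p = 0.0107). For Col1a2 the call was lost in the fit without double mutants 2 and 3 (adjusted p = 0.059). The CPM of Col1a1 divided by that of Col1a2 was 2.30 to 2.51 in the 3 WT libraries and reached 33.8 in HER2 mutant 3 and 8.13 in double mutant 2.

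Col3a1 encodes the chain of collagen III, which is laid into fibrils with collagen I in soft tissue. Its level was 36.9, 313 and 291 CPM in WT, 0.223, 0.103, 10.6 and 29.1 in the PIK3CA mutant, 2.72, 24.3, 0.0668 and 39.5 in the HER2 mutant and 0.0887, 0.503, 0.216, 0.0924 and 0 in the double mutant. Double mutant libraries held between 0 and 24 counts of Col3a1, under 1 CPM in each, and PIK3CA mutants 1 and 2 and HER2 mutant 3 were as low. Col3a1 fell in the double mutant against WT (log2 fold change -10.23 ± 1.87 SE, adjusted p = 0.00227) and against the HER2 mutant (log2 fold change -6.55 ± 1.66 SE, adjusted p = 0.0493). For Col3a1 the call held in each of the 8 fits with 1 library left out, and the log2 fold change moved to -11.04 without double mutant 2. It moved to -11.71 without double mutants 2 and 3. Against the HER2 mutant, where the groups overlapped, the call did not hold in 7 of the 9 fits with 1 library left out (adjusted p 0.0686 to 0.108), holding without HER2 mutant 1 or 3, and was also lost in a fit of the compared groups alone and without double mutants 2 and 3. Its log2 fold change there moved to -5.67 without HER2 mutant 4, to -7.36 without double mutant 2 and to -8.03 without both double mutants 2 and 3.

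Collagen V starts and limits the diameter of collagen I fibrils, and its chains come from Col5a1, Col5a2 and Col5a3. Col5a1 was at 13.8, 71.6 and 66.1 CPM in WT, 14.9, 24.2, 18.3 and 35.9 in the PIK3CA mutant, 4.87, 16.3, 7.81 and 35.8 in the HER2 mutant and 7.55, 7.72, 24.3, 7.65 and 9.49 in the double mutant. Double mutant 3 was the highest double mutant library and lay above WT 1. Col5a1 fell in the double mutant against WT (log2 fold change -2.15 ± 0.60 SE, adjusted p = 0.0296). For Col5a1 the call was lost in 6 of the 8 fits with 1 library left out (adjusted p 0.0576 to 0.133) and held without WT 1 or double mutant 3. Col5a2 ranged from 36.9 to 142 CPM in WT to 7.80 to 50.8 in the double mutant and did not pass the threshold (log2 fold change -2.21 ± 0.76 SE, adjusted p = 0.0715).

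Col5a3 was at 2.90, 14.9 and 13.8 CPM in WT, 0.286, 0.103, 1.37 and 6.75 in the PIK3CA mutant, 1.96, 9.41, 0.134 and 20.1 in the HER2 mutant and 0.496, 0.105, 0.334, 0.314 and 0.175 in the double mutant. All 5 double mutant libraries were under 1 CPM and below each WT library, and the HER2 mutant spanned both ranges. Col5a3 fell in the double mutant against WT (log2 fold change -5.19 ± 1.26 SE, adjusted p = 0.0137). For Col5a3 the call was lost in the fit without double mutants 2 and 3 (adjusted p = 0.0755). It also fell against the HER2 mutant (log2 fold change -4.77 ± 1.21 SE, adjusted p = 0.0493), a call that did not hold in 7 of the 9 fits with 1 library left out (adjusted p 0.0681 to 0.107), holding without HER2 mutant 1 or 3. That call was also lost in a fit of the compared groups alone and without double mutants 2 and 3, and the log2 fold change moved to -3.73 without HER2 mutant 4. Col24a1, the chain of a fibrillar collagen of developing bone, stayed under 4 CPM in every library and fell in the double mutant against WT (log2 fold change -4.35 ± 1.06 SE, adjusted p = 0.0147). For Col24a1 the call was lost without WT 3 (adjusted p 0.0555), and it was also lost in the fit without double mutants 2 and 3 (adjusted p = 0.0564).

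Col15a1 was lower in the double mutant than in WT as well. It encodes the chain of collagen XV, a proteoglycan of the basement-membrane border around vessels, muscle and fat. Its level was 16.3, 49.3 and 57.5 CPM in WT, 0.239, 0.0413, 6.04 and 13.5 in the PIK3CA mutant, 2.81, 8.31, 0.312 and 10.4 in the HER2 mutant and 0.390, 0.126, 0.157, 0.111 and 0.447 in the double mutant. Double mutant libraries held 6 to 23 counts each and lay below every WT library. Col15a1 fell in the double mutant against WT (log2 fold change -7.36 ± 1.34 SE, adjusted p = 0.00227). For Col15a1 the call held in each of the 8 fits with 1 library left out. Of 4 pericyte markers all 4 were called lower in the same comparison, and of 4 tested endothelial markers 2 were, where 6.72% of all genes were. The summed pericyte level was 16.1 to 34.3 CPM in WT, 3.37 to 13.6 in the PIK3CA mutant, 9.17 to 70.3 in the HER2 mutant and 2.43 to 4.51 in the double mutant. HER2 mutants 1 and 4, at 42.1 and 70.3 CPM, lay above every WT library in that sum and below every WT library in Col15a1. By gene, only Kcnj8 (15.6 CPM) and Abcc9 (22.7) lay above every WT library in HER2 mutant 1. In HER2 mutant 4 only Kcnj8 (42.3) and Cspg4 (22.7) did. Rgs5 was at 0.641 and 1.04 CPM in HER2 mutants 1 and 4, against 0.580 to 8.49 in WT. Cspg4 in HER2 mutant 1, at 3.17 CPM, lay below every WT library. The summed endothelial level was 2.06 to 5.04, 0.908 to 1.49, 0.962 to 1.94 and 0.628 to 1.19 CPM, in the same order of genotypes. The part of vessel cells in the Col15a1 difference was not tested.

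**Figure D3:**
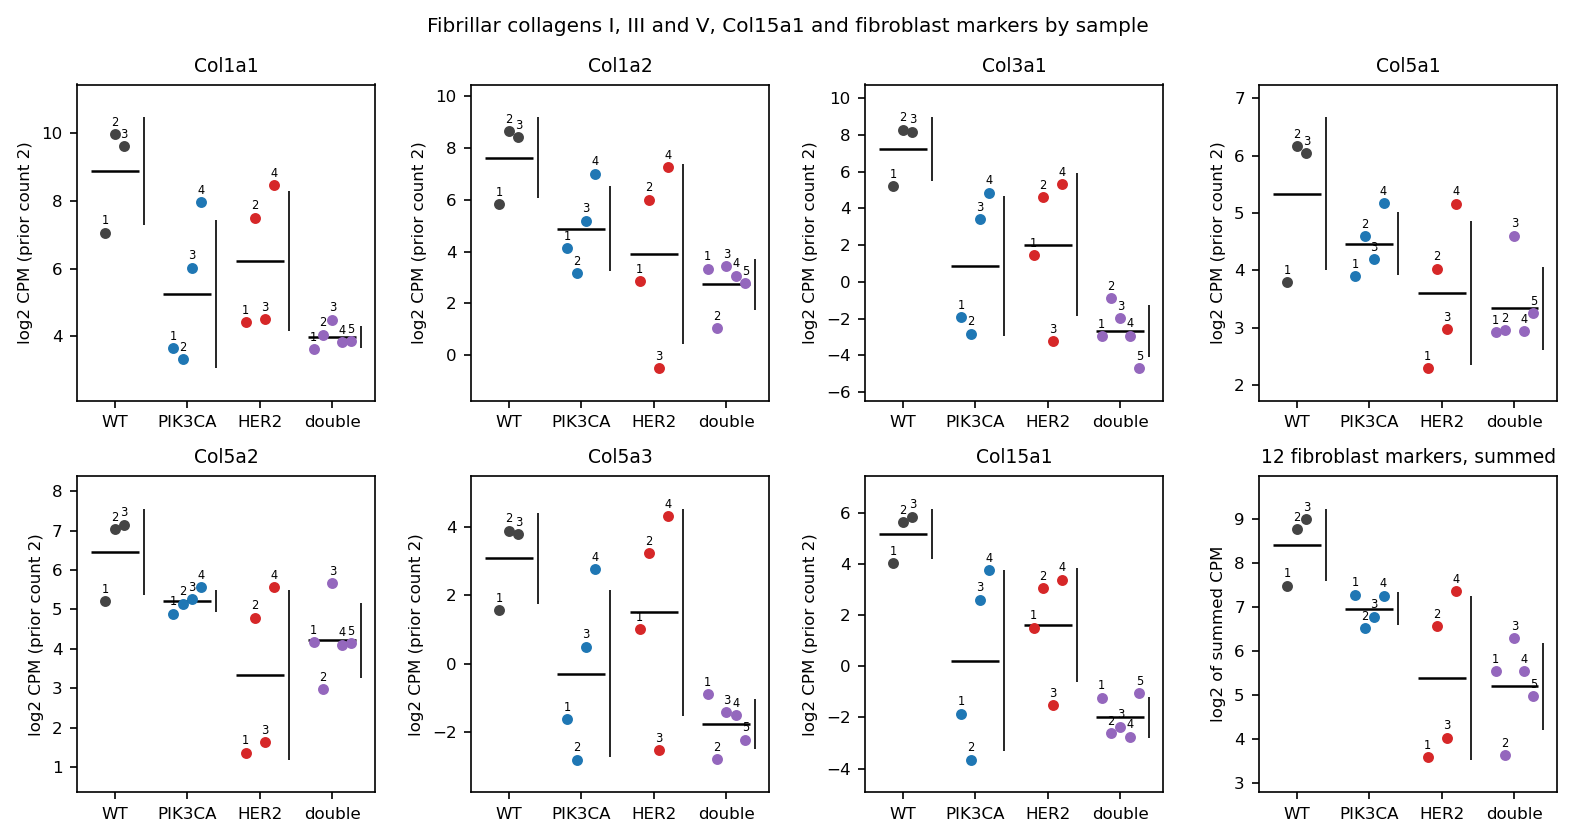
log2 CPM with a prior count of 2 of 7 collagen genes, and log2 of the summed CPM of 12 fibroblast markers (last panel), by genotype; each point is a sample with its replicate number, horizontal bars are means and vertical bars ± 1 SD. WT 2 and WT 3 lie at the top of each panel except that of Col5a3, WT 1 lies below them, and among the HER2 mutants samples 2 and 4 lie above samples 1 and 3 in each panel.

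Of 12 fibroblast markers 8 were called in the double mutant against WT, all lower, where 6.72% of all genes were called lower. Dcn, Fbn1, Pi16 and Prrx1 were not called, and the median log2 fold change over the 12 was -4.19. Their summed level was 179, 437 and 515 CPM in WT, 156, 91.4, 110.2 and 153 in the PIK3CA mutant, 12, 94.7, 16.3 and 165 in the HER2 mutant and 46.4, 12.4, 78.4, 46.3 and 31.3 in the double mutant. PIK3CA mutants 1 and 4 were nearly level in that sum and far apart in Col1a1 and Col3a1. Fbn1 was at 103 CPM in PIK3CA mutant 1 and 42.8 in PIK3CA mutant 4. Every other marker of the 12 was lower in PIK3CA mutant 1 than in PIK3CA mutant 4. Lum, a proteoglycan on collagen fibrils, was at 1.26, 20.4 and 13.9 CPM in WT, 0.0954, 0, 0.244 and 4.64 in the PIK3CA mutant, 0.396, 2.66, 0.0223 and 10.8 in the HER2 mutant and 0, 0.168, 0, 0 and 0.0194 in the double mutant. Thy1, a surface protein of fibroblasts, was at 15.4, 35.5 and 66.6 CPM in WT, 0.413, 0.207, 1.02 and 10.1 in the PIK3CA mutant, 0.679, 3.99, 0.178 and 11 in the HER2 mutant and 0.319, 1.05, 0.864, 0.499 and 0.194 in the double mutant. Dpt was at 0 in all 5 double mutant libraries, a value that a very low level could also give at this depth. PIK3CA mutant 4 and HER2 mutants 2 and 4, the 3 mutant libraries highest in Col1a1 and Col3a1, were also the 3 highest for 6 of the 12 markers (Dcn, Lum, Mfap5, Pdgfrb, Thy1 and Twist2). They were not for the other 6: among the mutants Pdgfra was highest in PIK3CA mutant 3 at 63.3 CPM, Fbn1 in PIK3CA mutant 1 at 103 and Prrx1 in double mutant 3 at 20.9. In the HER2 mutant against WT 3 of the 12 were called lower and in the PIK3CA mutant 1. Over all genes 5.63% and 3.03% were called lower there. In bulk RNA fewer cells of a type and less RNA per cell cannot be told apart, and the part of fibroblasts in these differences was not tested.

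Collagens II, XI and XXVII are fibrillar collagens known from cartilage. Col2a1 encodes the chain of collagen II, the main collagen of cartilage. Its level was 18.2, 36.2 and 27.2 CPM in WT, 122, 86.4, 29.5 and 53.4 in the PIK3CA mutant, 9.0, 6.38, 7.79 and 7.55 in the HER2 mutant and 189.5, 8.45, 437, 182 and 159 in the double mutant. All HER2 mutant libraries lay under 10 CPM, and so did double mutant 2, while the other 4 double mutant libraries were the highest of all. Col2a1 rose in the double mutant against the HER2 mutant (log2 fold change 4.67 ± 0.77 SE, adjusted p = 0.00669) and against WT (log2 fold change 2.84 ± 0.78 SE, adjusted p = 0.0273), and was lower in the HER2 than in the PIK3CA mutant (log2 fold change -3.25 ± 0.73 SE, adjusted p = 0.0209). Against WT the call was lost without any 1 of the WT libraries or double mutant 3 (adjusted p 0.0547 to 0.122). It was also lost there in a fit of the compared groups alone and with replicate number added to the fit. Against the HER2 mutant it held in each of the 9 fits with 1 library left out. There it was lost in a fit of the compared groups alone and with replicate number added to the fit. The call between the single mutants was lost without PIK3CA mutant 1 or 2 (adjusted p 0.0534 to 0.0617) and with replicate number added to the fit.

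Collagen XI sets fibril width together with collagen II. Col11a1 was at 100.3 to 203 CPM in WT, 338 to 428 in the PIK3CA mutant, 24.8 to 366 in the HER2 mutant and 353 to 612 in the double mutant. The double mutant lay wholly above WT, short of the threshold (log2 fold change 1.74 ± 0.55 SE, adjusted p = 0.0523). Col11a2, its partner chain, was at 2.39, 4.02 and 2.80 CPM in WT, 3.53, 2.85, 2.75 and 4.07 in the PIK3CA mutant, 6.02, 4.74, 9.01 and 7.70 in the HER2 mutant and 4.20, 5.43, 8.93, 3.86 and 4.22 in the double mutant. The HER2 mutant lay above every WT and every PIK3CA mutant library, at a low level. Col11a2 rose in the HER2 mutant against WT (log2 fold change 1.16 ± 0.32 SE, adjusted p = 0.0338). For Col11a2 the call was lost without WT 1, WT 3, HER2 mutant 3 or HER2 mutant 4 (adjusted p 0.0559 to 0.145), and it was also lost in a fit of the compared groups alone (adjusted p = 0.0872).

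Col27a1 encodes the chain of collagen XXVII, a thin-fibril collagen of cartilage. Its level was 5.21, 16 and 13.5 CPM in WT, 6.27, 1.94, 2.32 and 3.66 in the PIK3CA mutant, 95.8, 8.48, 63.4 and 47.4 in the HER2 mutant and 24.4, 6.86, 5.65, 4.62 and 8.46 in the double mutant. HER2 mutants 1, 3 and 4 were the highest libraries, and HER2 mutant 2 was near WT. Col27a1 was higher in the HER2 than in the PIK3CA mutant (log2 fold change 3.92 ± 0.71 SE, adjusted p = 0.00738), a call that held in each of the 8 fits with 1 library left out. It was lower in the double than in the HER2 mutant (log2 fold change -2.43 ± 0.61 SE, adjusted p = 0.0489). For Col27a1 the call was lost in 7 of the 9 fits with 1 library left out (adjusted p 0.0594 to 0.105) and held without HER2 mutant 2 or double mutant 1, it was also lost in the fit with a GC and length offset (adjusted p = 0.0572), a fit of the compared groups alone (adjusted p = 0.179) and the fit without double mutants 2 and 3 (adjusted p = 0.118), and the log2 fold change moved to -3.07 without double mutant 1.

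The 6 chains of collagen IV are encoded by 3 pairs of neighbours that face away from each other. Col4a1 and Col4a2, which encode the common chains of basement membranes, overlap by 22 bases at their starts on chromosome 8. Col4a4 and Col4a3 start 71 bases apart on chromosome 1. Col4a6 (chrX:141165403-141474076, minus strand) and Col4a5 (chrX:141475385-141689234, plus strand) start 1308 bases apart, in build GRCm38.

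Col4a1 was at 53, 186 and 139 CPM in WT, 43.2, 49.9, 45.7 and 72.9 in the PIK3CA mutant, 82.5, 93, 255 and 274 in the HER2 mutant and 32.5, 54.1, 114, 37.2 and 59.4 in the double mutant. Col4a2 was at 52.7, 164 and 132 CPM in WT, 59.2, 89, 49.8 and 89.5 in the PIK3CA mutant, 81.8, 115, 242 and 169 in the HER2 mutant and 31.9, 57.8, 164, 43.5 and 59.4 in the double mutant. The 2 genes were low and high in mostly the same libraries, with a ratio of their CPM of 0.561 to 1.62 over the 16 samples. HER2 mutants 3 and 4 were highest for Col4a1. Neither gene was called in any pair. The smallest adjusted p was that of Col4a1 in the HER2 against the PIK3CA mutant (log2 fold change 1.73 ± 0.48 SE, adjusted p = 0.05), just above the threshold, where the groups did not overlap.

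Col4a5 encodes a chain found in the basement membrane of kidney, skin and smooth muscle, among other places. It was at 131, 174 and 113 CPM in WT, 261, 304, 337 and 310.3 in the PIK3CA mutant, 649.8, 312, 417 and 230.3 in the HER2 mutant and 265, 369, 313, 262 and 247 in the double mutant. Every mutant library lay above every WT library. Col4a5 rose in the HER2 mutant (log2 fold change 1.53 ± 0.28 SE, adjusted p = 0.00398), in the PIK3CA mutant (log2 fold change 1.12 ± 0.28 SE, adjusted p = 0.0288) and in the double mutant (log2 fold change 1.06 ± 0.27 SE, adjusted p = 0.0174). For the HER2 mutant the call held in each of the 7 fits with 1 library left out and was lost in a fit of the compared groups alone. For the double mutant it was lost without WT 1 or WT 3 (adjusted p 0.0798 to 0.113) and without double mutants 2 and 3. For the PIK3CA mutant it was lost without WT 1, WT 3 or PIK3CA mutant 2, 3 or 4 (adjusted p 0.0591 to 0.185).

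The double mutant change in Col4a5 was smaller than both single-mutant changes added up (interaction, log2 fold change -1.59 ± 0.36 SE, adjusted p = 0.0487). This call did not hold in 11 of the 16 fits with 1 library left out (adjusted p 0.0581 to 0.179) and with median-of-ratios or upper-quartile scaling. Col4a6 was at 152 to 183 CPM in WT, 202 to 303 in the PIK3CA mutant, 188 to 381 in the HER2 mutant and 129 to 275 in the double mutant, with no call in any pair. The CPM of Col4a5 divided by that of Col4a6 was 0.743 to 0.953 in WT and 1.11 to 2.19 in the mutant libraries, without overlap. Col4a3 stayed under 1 CPM in every library, and Col4a4 was at 3.50 to 11.5 CPM. The CPM of Col4a4 was 8.74 to 36.6 times that of Col4a3, leaving out PIK3CA mutant 3, which held 2 counts of Col4a3. Neither was called.

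**Figure D4:**
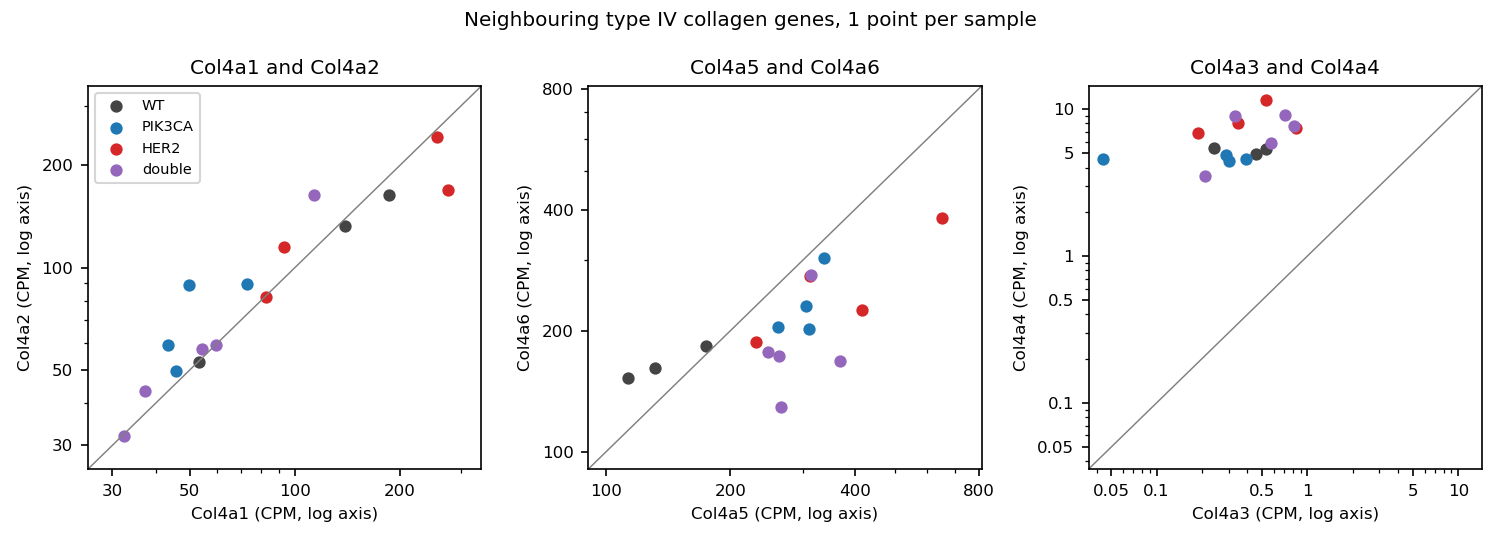
CPM of the 2 genes of each neighbouring type IV pair plotted against each other on log axes, 1 point per sample, coloured by genotype, with the line of equal CPM in grey. Points of Col4a1 and Col4a2 lie along the line, the WT points of Col4a5 and Col4a6 lie above it and all mutant points below it, and all points of Col4a3 and Col4a4 lie above it.

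Col18a1 encodes the chain of collagen XVIII, whose end piece is released as endostatin, an inhibitor of vessel growth. It was at 34.5, 117 and 76.4 CPM in WT, 219, 264, 114 and 278 in the PIK3CA mutant, 157, 109, 215 and 43.1 in the HER2 mutant and 215, 285, 520.0, 319 and 324 in the double mutant. Double mutant libraries lay above every WT and HER2 mutant library, with double mutant 1 and HER2 mutant 3 nearly level. Col18a1 rose in the double mutant against WT (log2 fold change 2.13 ± 0.50 SE, adjusted p = 0.011). For Col18a1 the call was lost without WT 1 or WT 3 (adjusted p 0.0604 to 0.0614). In the single mutants the difference from WT was 1.52 ± 0.50, adjusted p = 0.104, for PIK3CA and 0.79 ± 0.48, adjusted p = 0.329, for HER2.

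Collagens XVII and VII join basal epithelial cells to the matrix beneath. Col17a1 was at 353, 469 and 141 CPM in WT, 349.8, 318, 121 and 286 in the PIK3CA mutant, 92.4, 27.7, 115 and 16 in the HER2 mutant and 137, 70.0, 379, 208 and 188 in the double mutant. The HER2 mutant lay below every WT and every PIK3CA mutant library. Col17a1 fell in the HER2 mutant against WT (log2 fold change -2.36 ± 0.64 SE, adjusted p = 0.0304), and against the PIK3CA mutant it was -2.10 ± 0.61, adjusted p = 0.0618. For Col17a1 the call was lost without WT 1, WT 2 or HER2 mutant 2 (adjusted p 0.0596 to 0.0986), and it was also lost in a fit of the compared groups alone (adjusted p = 0.119). With replicate number added to the fit it was lost too, with or without a GC and length offset.

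Col7a1 was at 30.8, 89.2 and 20.8 CPM in WT, 100.3, 103, 43.5 and 72.4 in the PIK3CA mutant, 16.9, 27.2, 54.3 and 13.7 in the HER2 mutant and 79.6, 49, 169, 148 and 130.2 in the double mutant. HER2 mutant 3 lay above double mutant 2, so the groups overlapped. Col7a1 rose in the double mutant against the HER2 mutant (log2 fold change 2.04 ± 0.51 SE, adjusted p = 0.0468). For Col7a1 the call was lost in 7 of the 9 fits with 1 library left out (adjusted p 0.0645 to 0.0927) and held without HER2 mutant 3 or double mutant 2, and it was also lost in the fit with upper-quartile scaling (adjusted p = 0.0503) and a fit of the compared groups alone (adjusted p = 0.112).

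Of 10 basal or myoepithelial markers 4 were called in the HER2 mutant against WT, where 5.63% of all genes were called lower. All 4 were lower: Krt5, Myh11, Mylk and Cnn1. The other 6 were not called, among them the basal keratins Krt14, at 122 to 267 CPM in WT and 32 to 507 in the HER2 mutant, and Krt17, at 5.54 to 20.2 and 12 to 105. Krt5, a keratin of basal cells, was at 279.7, 345 and 131 CPM in WT, 412, 399, 99.6 and 274 in the PIK3CA mutant, 44.8, 14.1, 52 and 25.6 in the HER2 mutant and 171, 69, 245, 346 and 303 in the double mutant. Its change in the HER2 mutant against WT was -2.89 ± 0.57, adjusted p = 0.00592. In the double mutant against the HER2 mutant Krt5 (2.73 ± 0.53, adjusted p = 0.0152) and Mylk (1.89 ± 0.37, adjusted p = 0.0149) rose. The other 8 were not called there, where 1.03% of all genes were called higher. The summed level of the 10 was 531 to 1115 CPM in WT, 555 to 1463 in the PIK3CA mutant, 276 to 1002 in the HER2 mutant and 596 to 1094 in the double mutant. The part of basal cells in the Col17a1 and Col7a1 differences was not tested.

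Among the FACITs, Col9a1 and Col20a1 were highest in the HER2 mutant. Col9a1 encodes a chain of collagen IX, which coats collagen II fibrils. Its level was 13.6, 82.6 and 24.6 CPM in WT, 52, 58.5, 84.9 and 65.7 in the PIK3CA mutant, 703, 122, 206 and 432 in the HER2 mutant and 193, 122, 46.7, 147 and 159.7 in the double mutant. HER2 mutants 1 and 4 were the highest, and every HER2 mutant library lay above every WT and PIK3CA mutant library. Col9a1 rose in the HER2 mutant against WT (log2 fold change 3.18 ± 0.68 SE, adjusted p = 0.00915) and was higher than in the PIK3CA mutant (log2 fold change 2.49 ± 0.59 SE, adjusted p = 0.0264). For Col9a1 the call was lost without WT 3 (adjusted p 0.0626), it was also lost in a fit of the compared groups alone (adjusted p = 0.0854), and the log2 fold change moved to 4.26 without WT 2. Between the single mutants it was lost in 5 of the 8 fits with 1 library left out (adjusted p 0.0600 to 0.0869), holding without HER2 mutant 2, 3 or 4. The partner chains Col9a2 (6.57 to 149 CPM) and Col9a3 (26.9 to 91.8 CPM) were called in no pair.

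Col20a1, whose chain has no well-known role in the gland, was at 8.62, 11.9 and 7.31 CPM in WT, 7.22, 8.24, 10.4 and 13.4 in the PIK3CA mutant, 74, 35.7, 84.8 and 21.1 in the HER2 mutant and 5.46, 28, 46.5, 11.5 and 7.78 in the double mutant. HER2 mutant libraries lay above all WT and PIK3CA mutant libraries, and double mutants 2 and 3 reached into their range. Col20a1 was higher in the HER2 mutant than in WT (log2 fold change 2.54 ± 0.66 SE, adjusted p = 0.0254) and than in the PIK3CA mutant (log2 fold change 2.46 ± 0.59 SE, adjusted p = 0.0293). For Col20a1 the call was lost without WT 1, WT 2, WT 3 or HER2 mutant 3 (adjusted p 0.0539 to 0.121). Against the PIK3CA mutant it was lost in 6 of the 8 fits with 1 library left out (adjusted p 0.0522 to 0.0935), holding without HER2 mutant 2 or 4.

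Col12a1 encodes collagen XII, a FACIT bound to collagen I fibrils. It was at 169, 246 and 256 CPM in WT, 45.7, 36.7, 41.3 and 60.3 in the PIK3CA mutant, 4.88, 74, 83.8 and 110.5 in the HER2 mutant and 28.7, 77.7, 59.8, 50.7 and 38.9 in the double mutant. All mutant libraries lay below all WT libraries, and HER2 mutant 1 was far below the rest. Col12a1 fell in the PIK3CA mutant (log2 fold change -2.28 ± 0.60 SE, adjusted p = 0.0415) and in the double mutant (log2 fold change -2.13 ± 0.56 SE, adjusted p = 0.0216), and the HER2 mutant gave -1.71 ± 0.60, adjusted p = 0.08. For the PIK3CA mutant the call was lost in each of the 7 fits with 1 library left out (adjusted p 0.0688 to 0.153), and for the double mutant without WT 2 or WT 3 (adjusted p 0.0541 to 0.0853).

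Col16a1 encodes collagen XVI, a FACIT made by epithelial and smooth muscle cells as well as fibroblasts. It was at 38.8, 133 and 42.4 CPM in WT, 225, 227, 207 and 224 in the PIK3CA mutant, 153, 118, 70.6 and 139 in the HER2 mutant and 155, 161, 175, 199 and 225 in the double mutant. WT 2 was well above WT 1 and WT 3, and all PIK3CA and double mutant libraries lay above WT 2. Col16a1 rose in the PIK3CA mutant (log2 fold change 1.63 ± 0.36 SE, adjusted p = 0.0156) and in the double mutant (log2 fold change 1.36 ± 0.35 SE, adjusted p = 0.0188). For Col16a1 the call was lost without WT 1 or WT 3 (adjusted p 0.0789 to 0.112), and the log2 fold change moved to 2.44 without WT 2. In the double mutant the same 2 libraries ended the call (adjusted p 0.0991 to 0.12), and it moved to 2.17 without WT 2. Col14a1 was at 0.848 to 33.6 CPM and was called in no pair. Col19a1, at most 7.0 CPM (HER2 mutant 2), was higher in the HER2 than in the PIK3CA mutant (log2 fold change 3.41 ± 0.75 SE, adjusted p = 0.0195) and lower in the double than in the HER2 mutant (log2 fold change -2.95 ± 0.67 SE, adjusted p = 0.0328). The first call was lost without PIK3CA mutant 1, 2 or 4 (adjusted p 0.0599 to 0.0705) and in a fit of the compared groups alone (adjusted p = 0.0685). The second was lost in 5 of the 9 fits with 1 library left out (adjusted p 0.0592 to 0.115), among them that without HER2 mutant 2, which gave -1.66, and also in a fit of the compared groups alone and without double mutants 2 and 3. Without that library the first difference was 2.13.

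Collagen VIII forms a short-chain network beneath endothelia and in the cornea. Col8a2 was at 8.88, 11.7 and 8.02 CPM in WT, 4.10, 4.54, 2.70 and 2.93 in the PIK3CA mutant, 0.339, 1.75, 1.98 and 0.983 in the HER2 mutant and 7.66, 3.88, 6.03, 3.86 and 3.99 in the double mutant. HER2 mutant libraries were the lowest, below every library of the other genotypes, and all mutants lay below WT. Col8a2 fell in the HER2 mutant against WT (log2 fold change -2.92 ± 0.45 SE, adjusted p = 0.0015) and rose in the double mutant against the HER2 mutant (log2 fold change 2.01 ± 0.41 SE, adjusted p = 0.0187). The interaction was also called (log2 fold change 3.43 ± 0.59 SE, adjusted p = 0.0126): the double mutant lay above both single-mutant changes added up. All 3 calls held in each fit that left out 1 library. That against the HER2 mutant was lost in a fit of the compared groups alone. It and the interaction were also lost with replicate number added to the fit, with or without a GC and length offset. Col8a1, the partner of Col8a2, was at 3.24 to 127 CPM and was called in no pair.

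**Figure D5:**
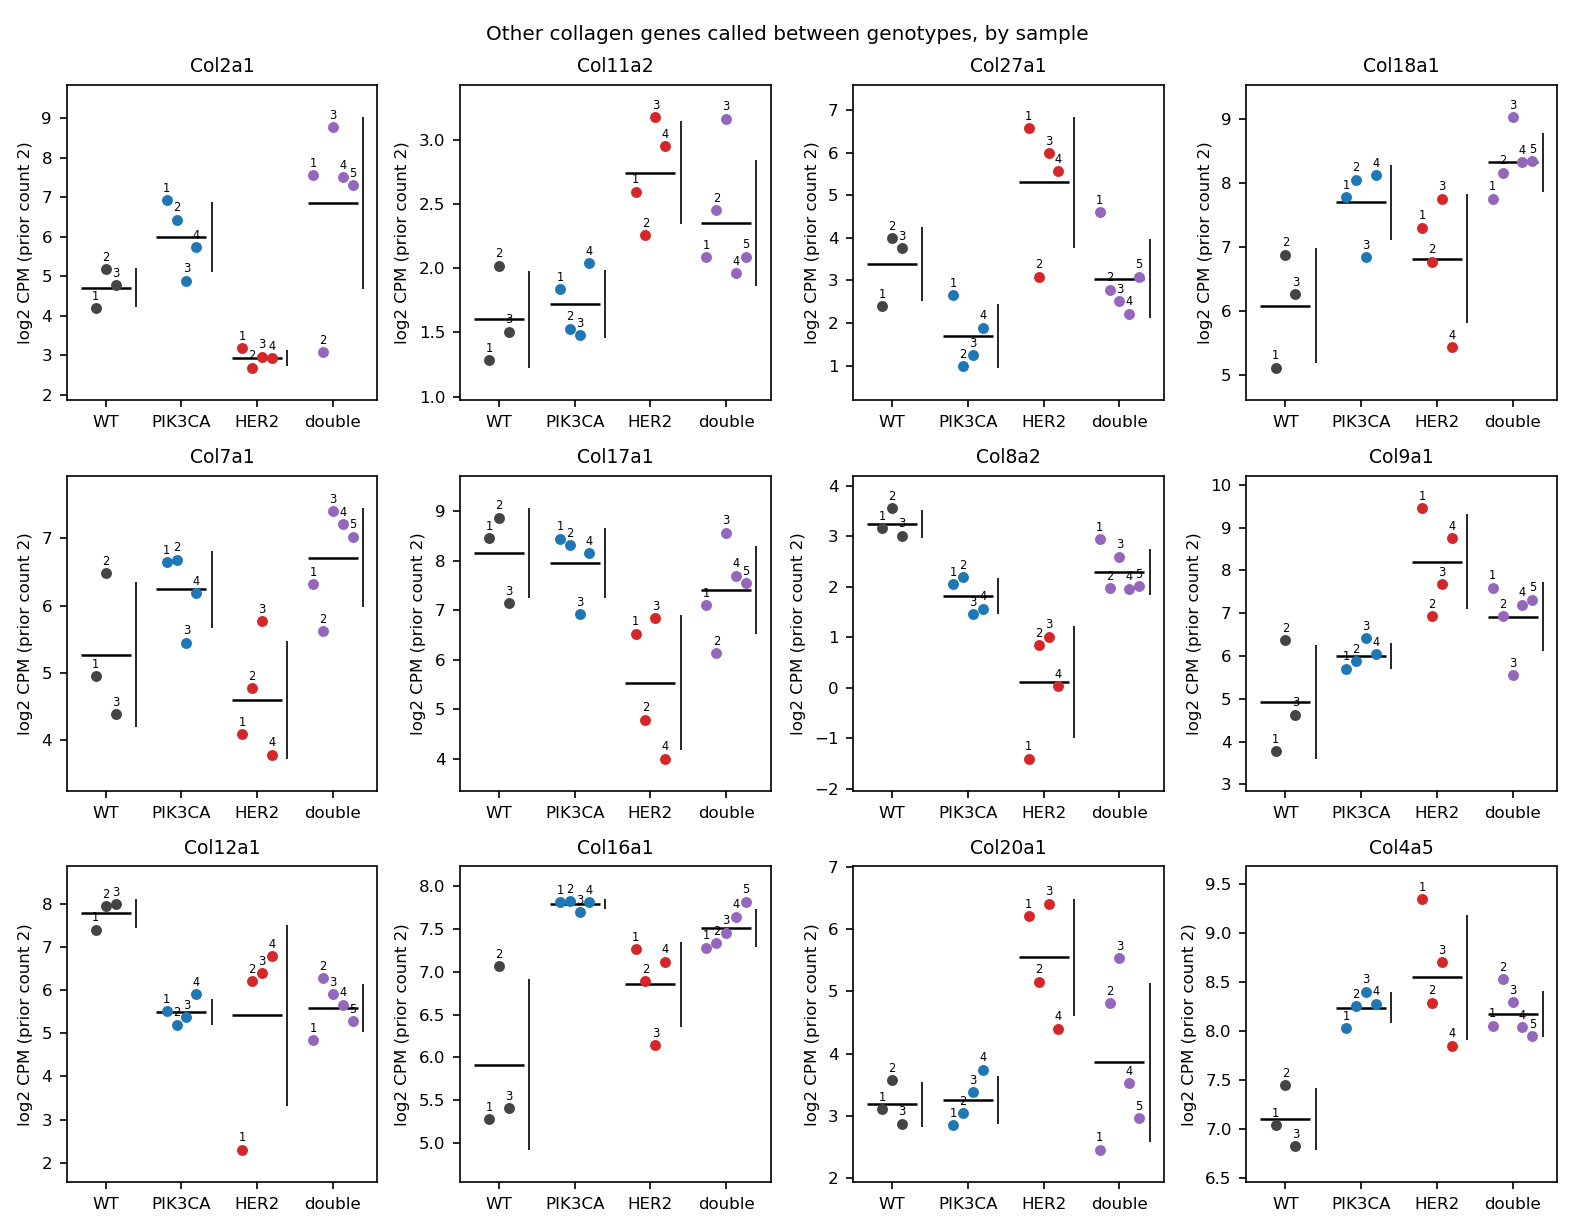
log2 CPM with a prior count of 2 of 12 further collagen genes by genotype; each point is a sample with its replicate number, horizontal bars are means and vertical bars ± 1 SD, and each panel has its own scale. Col8a2 is lowest and Col9a1 highest in the HER2 mutant, Col2a1 is low in the 4 HER2 mutant samples and in double mutant 2, and Col4a5 is higher in all mutant samples than in WT.

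Collagen VI forms beaded filaments around cells. Col6a1, Col6a2 and Col6a3 were at 2.70 to 166, 1.68 to 75.1 and 0.267 to 328 CPM over the 16 libraries and were called in no pair. Col6a2 (-2.72 ± 0.87, adjusted p = 0.0542) and Col6a3 (-3.74 ± 1.28, adjusted p = 0.0699) had double mutant libraries wholly below WT, short of the threshold. Col6a4 stayed under 1 CPM in every library, fell in the HER2 mutant against WT (log2 fold change -3.64 ± 0.73 SE, adjusted p = 0.00645) and had an interaction (log2 fold change 4.40 ± 0.94 SE, adjusted p = 0.0372). Without WT 2 the first value moved to -2.91 and the interaction to 3.67. That interaction did not hold in 10 of the 16 fits with 1 library left out (adjusted p 0.0588 to 0.101) and with no filter on low counts. Col28a1 also stayed under 1 CPM and fell in the double mutant against WT (log2 fold change -3.07 ± 0.80 SE, adjusted p = 0.0208), a call that was lost without WT 3 (-2.27, adjusted p = 0.186) and in a fit of the compared groups alone (adjusted p = 0.0567). Its value moved to -3.75 without double mutant 1. Col6a6 was at 0.318 to 1.08 CPM, Col26a1 at 0.388 to 2.09, Col10a1 at 1.79 to 6.94, Col23a1 at 4.08 to 18.2 and Col25a1 at 1.05 to 29.8, and none of these 5 was called.

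Other genes make and modify collagen. Of a list of 32 enzymes, chaperones and processing factors 31 were tested. In the double mutant against WT 4 were called higher and 3 lower, in the HER2 mutant 2 higher and 5 lower, and in the PIK3CA mutant 2 lower. Over all genes 5.03%, 4.75% and 1.49% were called higher and 6.72%, 5.63% and 3.03% lower, in the same order. The median log2 fold changes of the 31 were 0.055, -0.37 and -0.08, against 0.01, 0.03 and -0.03 over all genes. Adamts2, the enzyme that removes the amino-terminal end of procollagens I and III, was at 12.1, 28.1 and 50.8 CPM in WT, 0.159, 0.0413, 0.642 and 3.11 in the PIK3CA mutant, 0.924, 5.05, 0.289 and 3.73 in the HER2 mutant and 0.355, 0.189, 0.275, 0.240 and 0.0778 in the double mutant. Every mutant library lay below every WT library. Adamts2 fell in the double mutant (log2 fold change -7.04 ± 1.10 SE, adjusted p = 0.00079), the PIK3CA mutant (log2 fold change -4.93 ± 1.09 SE, adjusted p = 0.0148) and the HER2 mutant (log2 fold change -3.60 ± 1.02 SE, adjusted p = 0.0361).

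Pcolce, which speeds removal of the other end of procollagen, was at 9.23, 18.1 and 43.4 CPM in WT, 1.61, 1.34, 1.86 and 4.70 in the PIK3CA mutant, 1.72, 5.71, 2.0 and 8.74 in the HER2 mutant and 0.922, 0.608, 1.45, 1.37 and 1.87 in the double mutant. It fell in the double mutant (log2 fold change -4.24 ± 0.61 SE, adjusted p = 0.000478), the PIK3CA mutant (log2 fold change -3.31 ± 0.64 SE, adjusted p = 0.00657) and the HER2 mutant (log2 fold change -2.38 ± 0.62 SE, adjusted p = 0.0254). Loxl1, a cross-linking enzyme, fell in the double mutant against WT (log2 fold change -3.92 ± 0.87 SE, adjusted p = 0.00811). Adamts2, Pcolce and Loxl1 were, like Lum and Thy1, highest in WT 2 and WT 3.

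Serpinh1, the collagen chaperone of the endoplasmic reticulum, was at 134, 222 and 164 CPM in WT, 271, 279, 259.6 and 273 in the PIK3CA mutant, 376, 196, 240.0 and 328 in the HER2 mutant and 336, 265, 311, 273 and 309 in the double mutant. It rose in the double mutant (log2 fold change 0.79 ± 0.20 SE, adjusted p = 0.0177) and the HER2 mutant (log2 fold change 0.72 ± 0.21 SE, adjusted p = 0.0369). P3h2, a prolyl 3-hydroxylase that acts on collagen IV, rose in the double mutant against WT (log2 fold change 1.51 ± 0.36 SE, adjusted p = 0.0132), and Loxl3 rose there against the HER2 mutant (log2 fold change 1.67 ± 0.39 SE, adjusted p = 0.0367).

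Sparc, a collagen-binding secreted protein, was at 182, 414 and 345 CPM in WT, 383, 414, 259.8 and 412 in the PIK3CA mutant, 76.7, 69.8, 64.4 and 99.4 in the HER2 mutant and 266, 269.6, 615, 239.9 and 269.9 in the double mutant. All HER2 mutant libraries were below all others. Sparc fell in the HER2 mutant against WT (log2 fold change -2.02 ± 0.33 SE, adjusted p = 0.00215), was lower than in the PIK3CA mutant (log2 fold change -2.24 ± 0.32 SE, adjusted p = 0.0015) and rose in the double mutant against the HER2 mutant (log2 fold change 2.10 ± 0.31 SE, adjusted p = 0.00334). Between the double and the PIK3CA mutant edgeR called none of the 31, where 0.672% of all genes were called.

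Of 10 collagen receptors 9 were tested. Itga2, the integrin chain that pairs with Itgb1 to bind collagen on epithelial cells, was at 21.3, 35.1 and 14.5 CPM in WT, 69.9, 92.9, 64.6 and 94 in the PIK3CA mutant, 31.6, 38.7, 76.7 and 52.8 in the HER2 mutant and 72.4, 179, 121, 93.4 and 93 in the double mutant. It rose in the PIK3CA mutant (log2 fold change 1.76 ± 0.36 SE, adjusted p = 0.0102) and in the double mutant (log2 fold change 2.24 ± 0.36 SE, adjusted p = 0.00101). Against WT 4 of the 9 fell in the double mutant, among them Ddr2, a fibrillar collagen receptor of stromal cells (log2 fold change -3.15 ± 0.88 SE, adjusted p = 0.0287), Itga11, an integrin chain of fibroblasts (log2 fold change -1.97 ± 0.54 SE, adjusted p = 0.0262), and Ddr1, the discoidin receptor of epithelial cells (log2 fold change -0.64 ± 0.18 SE, adjusted p = 0.0284). In the HER2 mutant against WT 2 fell and none rose, and in the PIK3CA mutant 1 rose and 1 fell. Over all genes 6.72%, 5.63% and 3.03% were called lower in the double, HER2 and PIK3CA mutants, and 5.03%, 4.75% and 1.49% higher.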

How the data were processed

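RNA of 16 mouse mammary organoid samples was sequenced. The authors deposited whole-number counts per Ensembl gene, which were used as deposited; their table of normalized values was not used. Per the submitters' processing notes, bcl2fastq 2.20, STAR 2.0.4b, featureCounts 1.4.5 of Subread, DESeq2 1.33.5 and build mm10 were used; the strand setting is not given in the sources used here. Of 55774 entries, 287 repeated an identifier and were dropped. Of the collagen genes, 13 share exon bases with another gene, at most 6.07% (Col9a3).

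Counts were tested in R 4.3.3 with edgeR 4.0.16 (TMM, filterByExpr, quasi-likelihood test, two-sided) in 1 fit of all 16 samples by genotype, with Benjamini-Hochberg adjustment over 24252 genes. SE is the absolute log2 fold change over the square root of F. Log2 CPM used a prior count of 2. The test was tried on simulated data. The collagen genes, the gene lists and the classes were chosen with earlier results of these data known. Values by sample are given for genes with an adjusted p under 0.05 in at least 1 pair and a mean log2 CPM of at least 1, and for Col1a1, Col3a1, Col4a1, Col4a2 and Col17a1. Of each list up to 4 genes per comparison are named, those with the largest change among genes called with that mean. Dpt, Pdgfra, Fbn1, Prrx1, Krt14, Krt17, Rgs5, Cspg4, Kcnj8, Abcc9, and the markers named only in a count, were named after their values were seen. Alternatives were other scalings, no filter, a replicate block, a GC and length offset (splines, 5 degrees of freedom, GENCODE exons), only the groups compared, DESeq2 1.42.0, each library left out and, added after seeing the data, double mutants 2 and 3 left out.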

Additional observations from a re-analysis of the deposited data

Results flagged for a closer look

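Among 60 groups of 4 or 5 libraries tested for a sample far from the others, 5 stood out, and chance gives about 1 in 20. Col12a1 was at 4.88 CPM in HER2 mutant 1, against 74.0 to 110.0 in the other HER2 mutant libraries. Col16a1 was at 207 CPM in PIK3CA mutant 3, against 224 to 227 in the others of a tight group. Double mutant 2 was low for Col1a2, at 2.03 CPM against 6.88 to 10.7, and for Col2a1, at 8.45 CPM against 159 to 437. Double mutant 3 was high for Col5a1, at 24.3 CPM against 7.55 to 9.49.

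The interaction term of edgeR's fit was called for 3 genes. Its log2 value was -1.59 for Col4a5 (adjusted p = 0.0487), 4.40 for Col6a4 (adjusted p = 0.0372) and 3.43 for Col8a2 (adjusted p = 0.0126). The term takes in the WT libraries, so genotype and tissue of origin cannot be told apart in it. The calls of Col4a5 and Col6a4 did not hold in 11 and 10 of the 16 fits with 1 library left out. Col6a4 was under 1 CPM in every library.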

How the results depend on the processing

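With DESeq2 the collagen genes called were 7 (PIK3CA mutant against WT), 13 (HER2 mutant against WT), 14 (double against HER2 mutant), 2 (double against PIK3CA mutant), 12 (HER2 against PIK3CA mutant) and 5 (interaction), where DESeq2 called 6.15%, 13.3%, 6.45%, 2.66%, 8.02% and 3.48% of all genes. A fit of the compared groups alone gave 12 for the PIK3CA mutant and 3 for the HER2 mutant against WT and 0 for the double against the HER2 mutant, where 18.3%, 2.37% and 0.168% of all genes were called. With no filter on low counts 5 were called in the PIK3CA mutant against WT and 8 between the single mutants (2.52% and 2.22% of all genes). With a GC and length offset 11 were called in the HER2 mutant against WT and 8 between the single mutants (12% and 4.64% of all genes); that offset moved the median log2 fold change over all genes to 0.11, 0.12 and 0.15 in the PIK3CA, HER2 and double mutants against WT. Without double mutants 2 and 3 there was 1 call against the PIK3CA mutant and 7 interactions (0.889% and 4.17% of all genes). Leaving out 1 library gave 0 to 3 calls in the PIK3CA mutant, 4 to 9 in the HER2 mutant and 5 to 16 in the double mutant against WT. It gave 2 to 7 in the double against the HER2 mutant, 0 to 0 against the PIK3CA mutant, 1 to 8 between the single mutants and 1 to 4 interactions. In the same order 1.58% to 4.14%, 2.92% to 11.2%, 4.68% to 12.3%, 1.06% to 4.03%, 0.0701% to 0.593%, 1.76% to 4.83% and 0.215% to 1.59% of all genes were called. The labels do not say whether replicate numbers pair the samples, and this was not settled here. In no comparison did the deviations of same-numbered libraries correlate above 0.1 in every pair. They came nearest in the double against the HER2 mutant, with 3 of 4 pairs above it (0.071 to 0.273, mean 0.157, against a mean of -0.041 for other pairs) and 4 of 8 libraries correlating best with their own number. A fit with a replicate block called 3, 5, 11, 0, 0, 1 and 0 collagen genes. The order is PIK3CA, HER2 and double mutant against WT, double against HER2, double against PIK3CA, HER2 against PIK3CA and interaction. Of all genes that fit called 3.27%, 6.7%, 9.72%, 0.487%, 0.0783%, 2.28% and 0.144%, in the same order. It ended all collagen calls between the double and HER2 mutants and all interactions, those of Col8a2 among them. Against WT it ended the calls of Col12a1 in the PIK3CA mutant, Col11a2 and Col17a1 in the HER2 mutant and Col2a1 and Col28a1 in the double mutant. Between the single mutants it ended those of Col2a1, Col9a1, Col19a1 and Col20a1. With the GC and length offset added, 3 were called between the single mutants, 1 between double and HER2 mutant and 0 interactions. There 2.47%, 0.449% and 0.181% of all genes were called.

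With 1 library left out, differences that were not called ran up to 2.31 (Col1a1) and 2.21 (Col3a1) in the HER2 against the PIK3CA mutant, to 0.36 (Col4a1) and from -0.58 (Col4a2) in the double against the PIK3CA mutant, and from -0.61 (Col17a1) in the PIK3CA mutant against WT. Their signs changed in these fits. Without HER2 mutant 4 the HER2 against PIK3CA difference became -0.17 for Col1a1 and -0.14 for Col3a1. Col17a1 in the PIK3CA mutant against WT became 0.12 without WT 2. Between the double and PIK3CA mutants Col4a1 became -0.21 without double mutant 3 and -0.30 without double mutants 2 and 3. There Col4a2 became 0.02 with upper-quartile scaling, 0.05 with the GC and length offset, 0.10 and 0.11 without PIK3CA mutants 2 and 4, and 0.18, 0.06, 0.12 and 0.05 without double mutants 1, 2, 4 and 5. Genes under 1 CPM, such as Col6a4 and Col28a1, rest on few counts even at these depths.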
